A study of Mus musculus with 23 samples.

Results

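The Kcnq1ot1 imprinted domain lies on distal mouse chromosome 7 and is described here by 9 genes of the 26183 in the deposited tables: Kcnq1ot1, Cdkn1c, Phlda2, Slc22a18, Kcnq1, Tssc4, Cd81, Tnfrsf23 and Th. They were chosen by name as genes of this domain, and all 9 were found in the count tables and in the allelic tables. RNA-seq was done on 23 whole E13.5 hybrid embryos (129/DBA) that differ in Zfp57. This gene encodes a KRAB zinc finger factor needed to maintain methylation at most imprinting control regions. The mothers were 129 mice and the fathers carried Zfp57 +/- on a mainly DBA/2J background, so every embryo had a 129 maternal and a DBA paternal chromosome. In M+Z+ embryos the mother had a working Zfp57 allele and the embryo had one too (6 females and 4 males). The sample titles write these embryos as Zfp57-/+ while the paper writes Zfp57+/- or Zfp57+/+, so whether they were heterozygous or wild type is not settled here. M-Z+ embryos came from Zfp57-/- mothers and had a paternal working allele (3 females and 3 males). M-Z- embryos had neither maternal nor zygotic Zfp57 (4 females and 3 males). In other M-Z- embryos, the paper reports methylation largely kept at a few imprinting control regions, those of Kcnq1ot1 and H19 among them. The crosses were made in 1 direction, so strain of origin and parent of origin cannot be told apart.

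In this domain an unmethylated stretch on the paternal chromosome acts as the promoter of Kcnq1ot1, a long noncoding RNA that runs antisense inside the potassium channel gene Kcnq1. The maternal copy of that stretch is methylated from the egg, and Kcnq1ot1 is silent there. On the paternal chromosome the RNA is known to hold the neighbouring genes silent, so that genes such as Cdkn1c, Phlda2, Slc22a18 and Kcnq1 are read from the maternal copy. Cdkn1c encodes an inhibitor of cyclin-dependent kinases and Phlda2 a protein that limits placental growth, and for genes farther from Kcnq1ot1 such as Cd81, Tssc4, Tnfrsf23 and Th imprinting is best known in the placenta.

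In the annotation of the count tables (mm9), Kcnq1ot1 is a single exon of 83437 bases on the minus strand, chr7:150399016-150482452. It lies inside Kcnq1 (plus strand, chr7:150293159-150612947, 16 exons) and covers exon 11 of that gene, chr7:150447161-150447281, which is 121 bases or 3.99% of the exonic length of Kcnq1. The counting used strand, so reads of the 2 genes could be told apart. As a measure of how well, the counts for Tsix, the antisense partner of Xist, were 0.140% to 0.445% of those for Xist in the 13 females. On one side of the Kcnq1ot1 start lie Cdkn1c (chr7:150644244-150646955, minus strand, start 165 kb away), Slc22a18 (chr7:150659694-150685237, plus strand, 177 kb), Phlda2 (chr7:150687453-150688429, minus strand, 206 kb) and Tnfrsf23 (chr7:150851712-150871780, minus strand, 389 kb). On the other side, beyond the start of Kcnq1 at 189 kb, lie Tssc4 (chr7:150255273-150256992, plus strand, 227 kb), Cd81 (chr7:150238655-150253835, plus strand, 244 kb) and Th (chr7:150078684-150085900, minus strand, 397 kb).

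The sequence at the Kcnq1ot1 start is shown because every allelic value in this domain comes from the RNA that begins there. The promoter is from RefSeq (GRCm38.p6, chr7:143296498-143296797, minus strand, 250 bases before to 50 after the start), with CCAAT boxes in capitals. A promoter entry was matched for 7 of the 9 genes, all except Cdkn1c and Kcnq1. The same 300 bases were found once on chromosome 7 of mm9, at chr7:150482403-150482702, where they take in the annotated start.
Kcnq1ot1 promoter: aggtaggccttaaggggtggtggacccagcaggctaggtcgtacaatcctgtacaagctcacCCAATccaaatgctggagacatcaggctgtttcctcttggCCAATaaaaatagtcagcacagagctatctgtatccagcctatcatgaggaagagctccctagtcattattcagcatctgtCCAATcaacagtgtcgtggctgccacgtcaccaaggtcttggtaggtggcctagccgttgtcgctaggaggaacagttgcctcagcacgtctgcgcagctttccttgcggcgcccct
It held 3 matches to CCAAT on either strand and 9 CpG sites. Of 32851 RefSeq promoters of this length, 37.4% held at least 1 CCAAT and 3.37% at least 3. The hexamer bound by ZFP57 when methylated, TGCCGC, was not matched on either strand of this window (11.6% of the promoters hold it). In the first 1000 bases of the transcript in mm9, however, TGCCGC occurred 3 times, at bases 802, 839 and 874 from the start, the first on the opposite strand. The stretch with all 3 is printed from base 782 to base 899 (mm9, chr7:150481554-150481671, minus strand, 12 CpG sites), with the hexamer or its reverse complement in capitals.
Kcnq1ot1 bases with the hexamer: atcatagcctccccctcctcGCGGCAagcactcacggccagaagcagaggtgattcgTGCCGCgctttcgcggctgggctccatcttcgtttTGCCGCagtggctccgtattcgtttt
Of the 17103 tested genes with such a window, 41.0% held the hexamer at least once in their first 1000 bases and 4.93% at least 3 times. A match of letters is a description and not evidence of binding. In the same window Cdkn1c, Phlda2 and Tssc4 had 1 match each and the other 5 genes of the domain none. Among genes of other imprinted domains, Peg3 had 6 matches, Airn 5, and Plagl1 and Nnat 4 each. Snrpn, Mest, Impact and H19 had none in this window, which does not cover sequence outside it. In the 300-base RefSeq promoters, entries of Mest held up to 2 matches and those of Snrpn up to 1.

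The libraries held 15.2 to 24.1 M counts (M, 1000000) per embryo. Zfp57 itself was at 52.7 to 99.1 counts per 1000000 counts of the library (CPM) in M+Z+ embryos of both sexes and at 66.6 to 78.6 CPM in M-Z+ embryos, against 25.5 to 35.3 CPM in M-Z- embryos, so reads from the gene remained in the mutants but the ranges did not overlap. Markers of other tissues were looked at with the domain in mind, since several of its genes are known from placenta. The 13 trophoblast markers summed to 1.43 to 3.43 CPM per embryo and the 3 decidua markers to at most 0.0571 CPM, with ranges that overlapped between the genotypes. The 7 erythroid markers summed to 8259 to 16149 CPM in females of all genotypes, 10990 to 13747 CPM in male M+Z+ embryos, and 14298 to 32632 CPM in male M-Z- embryos. The 8 visceral endoderm and liver markers summed to 4528 to 6554 CPM in male M+Z+ and 1671 to 4318 CPM in male M-Z- embryos, and to 3236 to 6915 CPM in female M+Z+ and 2440 to 3966 CPM in female M-Z- embryos. The male M-Z- replicate 2 stood apart from its group. Its counts differed from those of replicates 1 and 3 by a mean chi-square per gene of 40.0 and 52.0, against 19.1 for the other pair of that group and 2.34 to 22.9 for pairs within the other groups. Its erythroid sum was 32632 CPM, against 15215 and 14298 CPM in the other male M-Z- embryos. It was also the highest male for Cd81, Th and Ascl2 and the only embryo with maternal reads of Kcnq1ot1. For Kcnq1ot1, Cd81, Th and Tnfrsf23 the male log2 change of M-Z- against M+Z+ is given with and without it. The male value of Cd81 against M-Z+ and the sex differences of Cd81 and Th are given only with it. The part of these tissue differences in the results was not tested. In whole embryos, fewer cells of a type and less RNA per cell cannot be told apart.

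Per length of transcript, the 9 genes spanned 3 orders of magnitude. In transcripts per 1000000 transcripts (TPM, mean ± SD over 23 embryos), Cdkn1c was at 1093 ± 92.1, Cd81, which encodes a tetraspanin of the cell surface, at 243 ± 14.5, and Tssc4 at 61.9 ± 5.25. Th, the rate-limiting enzyme of catecholamine synthesis, was at 7.16 ± 1.19 TPM and Phlda2 at 6.45 ± 1.60 TPM. Slc22a18, a membrane transporter, was at 2.29 ± 0.67 TPM and Kcnq1ot1 at 1.95 ± 0.35 TPM. Tnfrsf23, a decoy receptor of the TNF receptor family, was at 1.01 ± 0.34 TPM and Kcnq1 at 0.93 ± 0.28 TPM. The steps from Cdkn1c to Cd81, from Cd81 to Tssc4 and from Tssc4 to Th exceeded the spread between embryos, while Th and Phlda2, Slc22a18 and Kcnq1ot1, and Tnfrsf23 and Kcnq1 lay within each other's SD. Because of its length, Kcnq1ot1 was nevertheless well counted, with 826 to 1738 reads per embryo, whereas Phlda2, Slc22a18, Kcnq1 and Tnfrsf23 had 11 to 57 reads per embryo.

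**Figure D1:**
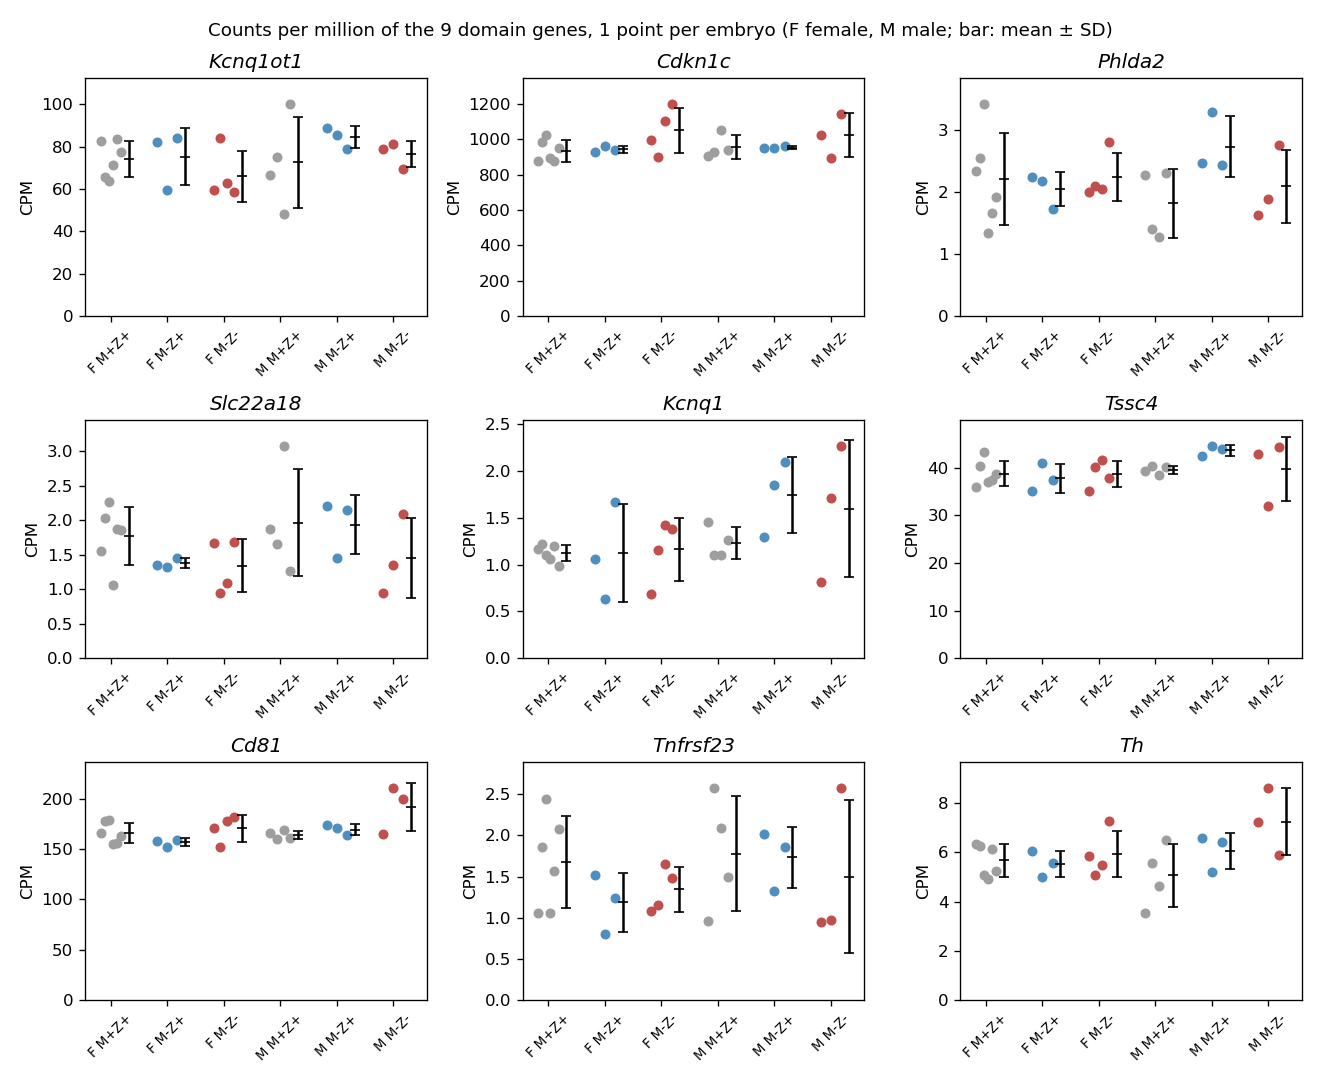
CPM (y axis, from 0) of the 9 genes in each of the 23 embryos, by sex and genotype (x axis, F female and M male). Points are embryos and bars are the mean ± SD of the group, and in each panel the M-Z- embryos lie within or across the range of the M+Z+ embryos of their sex.

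The first comparison asked whether total RNA of the domain changed without Zfp57. It did not pass the test for any of the 9 genes. Kcnq1ot1 was at 63.6 CPM in the lowest, 74.6 at the median and 83.7 in the highest of the 6 female M+Z+ embryos, and at 59.3, 84.0, 62.7 and 58.4 CPM in the 4 female M-Z- embryos. Among males the values were 66.8, 75.1, 48.0 and 100.2 CPM for M+Z+ and 78.8, 81.2 and 69.3 CPM for M-Z-. In females 3 of the 4 mutants lay below every control and the other one above them, and in males all 3 mutants lay inside the range of the controls, which was wide (replicate 3 lowest, replicate 4 highest). By edgeR's quasi-likelihood test over all genes with Benjamini-Hochberg adjustment, the log2 change of M-Z- against M+Z+ was -0.17 ± 0.11 (SE, adjusted p = 0.508) for the females and 0.12 ± 0.17 (adjusted p = 0.751) for the males. Leaving out 1 female took the female value to between -0.31, without the M-Z- replicate 2, and -0.12, without the M-Z- replicate 4. The male value ranged from -0.03 without the M+Z+ replicate 3 to 0.30 without the M+Z+ replicate 4 and was 0.03 without the M-Z- replicate 2 and 0.21 without the M-Z- replicate 3, and none of these passed the test. With all 23 embryos in 1 fit and sex as a term it was -0.05, with a 95% interval from -0.27 to 0.17 (adjusted p = 0.825). A doubling would be 1 on this scale, above the upper end of the interval.

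Cdkn1c, the most abundant gene of the domain and normally read from the maternal copy, was at 877 CPM in the lowest, 921 at the median and 1024 in the highest female M+Z+ embryo, and at 995, 901, 1101 and 1199 CPM in the female M-Z- embryos. Male M+Z+ embryos had 903, 927, 1054 and 937 CPM and male M-Z- embryos 1024, 896 and 1144 CPM. The groups overlapped in both sexes, and the 3 highest embryos of all 23 were mutants. The log2 change was 0.16 ± 0.07 (SE, edgeR, adjusted p = 0.264) for the females, 0.13 ± 0.08 (adjusted p = 0.424) for the males and 0.15 with an interval from 0.05 to 0.26 in both sexes together (adjusted p = 0.0617). This was below the size of 0.5 needed for a call. Leaving out 1 embryo of a sex took the female value to as low as 0.089 (without the M-Z- replicate 4) and the male value to as low as 0.065 (without the M-Z- replicate 3). The adjusted p passed 0.05 by DESeq2 (0.0357) and in 4 of the 23 edgeR fits that left out 1 embryo, those without the female M-Z- replicate 2 (0.0274), the male M-Z- replicate 2 (0.0391), the male M+Z+ replicate 3 (0.0405) and the female M+Z+ replicate 3 (0.0425). The log2 change lay between 0.11 and 0.18 in the 23 fits, below 0.5 in each.

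Among the other genes normally read from the maternal copy (Phlda2, Slc22a18 and Kcnq1), Slc22a18 had the largest difference in females and in both sexes together, while in males Kcnq1 was at 0.41 and Slc22a18 at -0.39. Leaving out 1 male moved Kcnq1 from 0.10 (without the M-Z- replicate 3) to 0.73 (without the M-Z- replicate 1) and Slc22a18 from -0.71 (without the M-Z- replicate 3) to -0.10 (without the M+Z+ replicate 3), and none of these passed the test. It was at 1.06 CPM in the lowest, 1.87 at the median and 2.26 in the highest female M+Z+ embryo, and at 1.66, 0.946, 1.08 and 1.68 CPM in female M-Z- embryos. Male M+Z+ embryos had 1.87, 1.65, 3.08 and 1.27 CPM and male M-Z- embryos 0.945, 1.34 and 2.09 CPM. The lowest embryos of each sex were mutants, but the groups overlapped, and its log2 change in both sexes together was -0.39 with an interval from -0.80 to 0.02 (edgeR, adjusted p = 0.216). Phlda2 ranged from 1.28 to 3.43 CPM in M+Z+ and from 1.64 to 2.82 CPM in M-Z- embryos, with a log2 change of 0.11 (interval -0.27 to 0.48), and of 0.029 (without the female M-Z- replicate 4) to 0.22 (without the female M+Z+ replicate 3) when 1 embryo was left out. Kcnq1 ranged from 0.986 to 1.45 CPM in M+Z+ and from 0.685 to 2.27 CPM in M-Z- embryos, with a log2 change of 0.20 (interval -0.23 to 0.62), and of 0.071 (without the male M-Z- replicate 3) to 0.31 (without the male M-Z- replicate 1) when 1 embryo was left out. The intervals of these genes, at 11 to 57 reads per embryo, are the widest of the domain together with that of Tnfrsf23.

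The genes at the edges of the domain did not pass the test either, with higher means in male mutants for Cd81 and Th. Cd81 was at 166, 160, 169 and 161 CPM in male M+Z+ embryos and at 165, 211 and 200.1 CPM in male M-Z- embryos, so 2 of the 3 mutants lay above all controls. When 1 male was left out, the log2 change ranged from 0.15 (adjusted p = 0.422), without the M-Z- replicate 2, to 0.38 (edgeR, adjusted p = 0.0396), without the M-Z- replicate 1. Its log2 change was 0.27 ± 0.09 (SE, edgeR, adjusted p = 0.170) for the males and 0.03 ± 0.06 (adjusted p = 0.827) for the females. Th was at 3.53, 5.57, 4.65 and 6.51 CPM in male M+Z+ and at 7.24, 8.62 and 5.89 CPM in male M-Z- embryos, with a log2 change of 0.57 ± 0.21 (adjusted p = 0.208) for the males and 0.06 ± 0.13 (adjusted p = 0.870) for the females. Without the male M-Z- replicate 2 the log2 change of Th was 0.39 (adjusted p = 0.501). The paper lists Th as increased in male but not female M-Z- embryos. Its threshold was a log2 change over 0.5 in size and p below 0.05 by DESeq2, with no adjustment stated. The test of the difference between the sexes gave 0.23 for Cd81 (adjusted p = 0.755) and 0.50 for Th (adjusted p = 0.758). Tssc4 had the smallest difference, with a log2 change of 0.01 and an interval from -0.10 to 0.12 in both sexes together. Tnfrsf23 ranged from 0.955 to 2.57 CPM in M+Z+ and from 0.945 to 2.58 CPM in M-Z- embryos, with a log2 change of -0.27 (interval -0.75 to 0.21), and of -0.46 to -0.18 when 1 embryo was left out. In males alone it was at -0.19, at 0.014 without the M-Z- replicate 2, and at -0.79 without the M-Z- replicate 3.

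Over all genes tested, the share called changed (adjusted p below 0.05 and a log2 change of at least 0.5 in size) in M-Z- against M+Z+ embryos was 0.563% in females, 0.39% in males and 2.19% in both sexes together. Of the 9 domain genes 0 were called in each of the 3 fits by edgeR and 0 by DESeq2, and 1, 2 and 3 of them had an unadjusted p below 0.05: Cdkn1c in females, Cd81 and Th in males, and these 3 in both sexes together. Over all genes the share at an unadjusted p below 0.05 was 15.5%, 17.0% and 25.4%, so these counts are near the background. The number of genes called was 95 in females (55 without the M-Z- replicate 2), 65 in males and 376 in both sexes together. In males it ranged from 41, without the M+Z+ replicate 1 or 2, to 144 without the M+Z+ replicate 4 and 899 without the M-Z- replicate 3, and 0 of the 9 were called in each of these fits as well. With shares as low as this in the background, 0 of 9 says little by itself, and the intervals above carry the result. The median log2 change of the 9 genes in both sexes together was 0.11, against 0.00 over all genes tested.

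Loss of maternal Zfp57 alone was compared next. Kcnq1ot1 was at 82.2, 59.6 and 84.0 CPM in female M-Z+ embryos and at 88.9, 85.5 and 78.9 CPM in male M-Z+ embryos, within the range of the M+Z+ embryos apart from the lowest and the highest female. Its log2 change against M+Z+ was 0.01 ± 0.12 (SE, edgeR, adjusted p = 0.993) for the females and 0.20 ± 0.17 (adjusted p = 0.793) for the males. The male value was 0.05 without the M+Z+ replicate 3 and 0.39 without the M+Z+ replicate 4 (adjusted p = 0.988 and 0.256). Cdkn1c was at 927, 962 and 936 CPM in females and at 948, 950 and 960 CPM in males, and its log2 change was 0.00 ± 0.08 and -0.03 ± 0.08. Of the 9 genes 0 were called and 0 had an unadjusted p below 0.05, both by sex and in both sexes together, where 6.64% (females), 7.86% (males) and 2315 of 17139 (both sexes) of all genes had such a p and the share called was 0.0593% (females), 0.048% (males) and 0.0759% (both sexes). These shares rest on 10, 8 and 13 genes, and leaving out 1 embryo took the female count to between 5 and 12 and the male count to between 0 and 54 (without the M+Z+ replicate 4). DESeq2 called 0 of the 9 in either sex. Between M-Z- and M-Z+ embryos 0 of 9 were called (edgeR, background 0.196%, 0.15% and 0.566%), and the values with an unadjusted p below 0.05 were Cd81 in males (0.25) and, in both sexes together, Cdkn1c (0.17, interval 0.05 to 0.29) and Cd81 (0.19, interval 0.06 to 0.31). Over all genes 9.5% in males and 15.1% in both sexes had such a p.

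Male and female M+Z+ embryos were compared as well. The log2 difference of males from females was -0.03 for Kcnq1ot1 (interval -0.32 to 0.25) and 0.03 for Cdkn1c (interval -0.11 to 0.18). For the less counted genes the intervals were wider, as for Phlda2 (-0.26, interval -0.75 to 0.24), so a difference between the sexes is not excluded for them, and of the 9 genes 0 passed the test at a size of 0.3 (edgeR, background 0.0817%, and 0 at an unadjusted p below 0.05, against 4.92% of all genes). For the difference of the genotype effect between the sexes, 0 of 9 were called for M-Z- against M+Z+ and 0 for M-Z+ against M+Z+, with a background of 0.0% for each, and Cd81 and Th were the 2 genes with an unadjusted p below 0.05 in the first (6.46% over all genes).

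**Figure D2:**
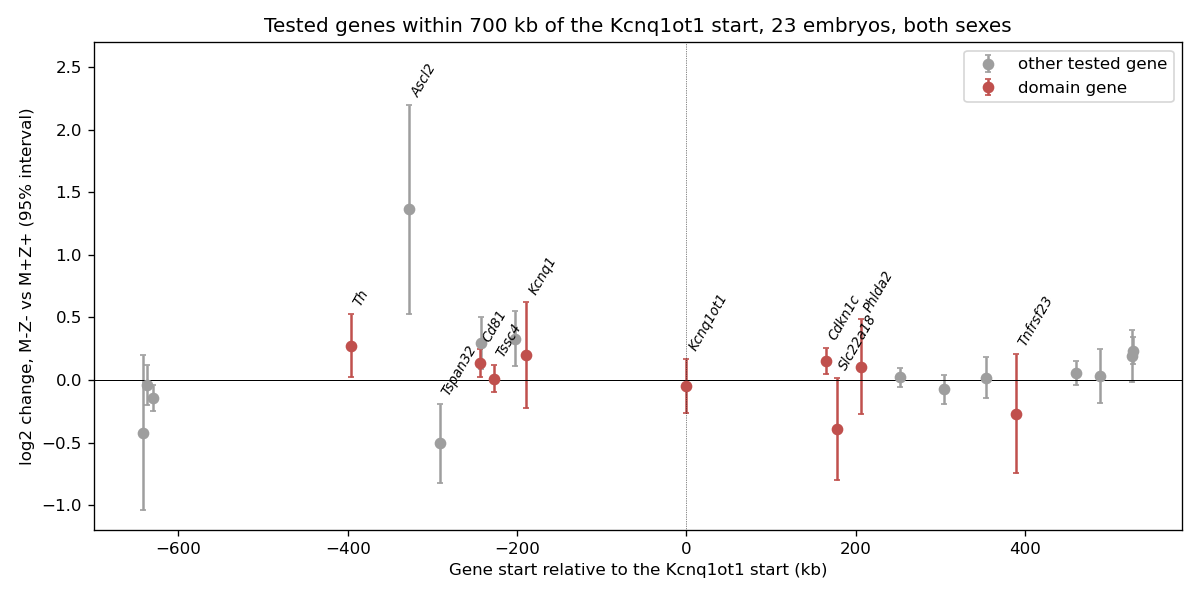
The log2 change between M-Z- and M+Z+ embryos of both sexes (y axis, points with 95% intervals from edgeR) against the distance of each gene start from the Kcnq1ot1 start in kb (x axis), for the 23 tested genes within 700 kb. The domain genes lie between -0.39 and 0.28, and Ascl2 at 1.36 and Tspan32 at -0.51 are the called neighbours.

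Of the 23 genes tested within 700 kb of the Kcnq1ot1 start, 2 were called in both sexes together, and neither is among the 9. Over all genes tested, 2.19% were called in this comparison, and 9.69% had an adjusted p below 0.05 at any size. Ascl2, a transcription factor of trophoblast, had a log2 change of 1.36 ± 0.41 (SE, edgeR, adjusted p = 0.0337), from 0.174 to 0.291 CPM in male M+Z+ embryos to 0.675, 1.01 and 2.20 CPM in male M-Z- embryos, with overlap in females. In females Ascl2 did not pass the filter on low counts and was not tested. The paper, at its own threshold, lists Ascl2 as increased in male but not female M-Z- embryos. It had 3 to 15 reads in the embryos of all other groups against 11 to 36 in male M-Z- embryos, so it entered the joint fit through the group in which it was high, and its call is a description that supports nothing else. It was called in 18 of the 23 fits that left out 1 embryo, and without the male M-Z- replicate 2 its log2 change was 0.88 (adjusted p = 0.143). Tspan32, a tetraspanin of blood cells, had a log2 change of -0.51 ± 0.15 (adjusted p = 0.0370) and was called in 16 of those 23 fits. Without the male M-Z- replicate 2 its log2 change was -0.39 (adjusted p = 0.0605). A pair of other neighbours had an adjusted p below 0.05 under the size of a call, Dhcr7, an enzyme of cholesterol synthesis (0.23, interval 0.13 to 0.34, adjusted p = 0.00525, the lowest of the window), and Trpm5, a cation channel (0.33, interval 0.11 to 0.55, adjusted p = 0.0466).

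This domain was also set beside other imprinted domains, and it differed from those where genes changed. In the neighbouring H19-Igf2 domain, 0 of 6 tested genes were called for M-Z- against M+Z+ in females, males or both sexes together. Their log2 changes in both sexes together ran from -0.30 to 0.14 (edgeR, lowest adjusted p = 0.0718). Of the other maternally methylated domains, only genes from those where the paper reports methylation affected were listed, with earlier results known. The domains of Peg10, Gpr1 and Slc38a4, where the paper reports it mostly kept, were not looked at. The listed paternally expressed genes, Snrpn, Peg3, Plagl1, Mest, Nnat and Impact, all rose in M-Z- embryos of both sexes. The log2 changes of these 6 ran from 0.73 (Impact) to 1.04 (Plagl1) in both sexes together, with adjusted p of at most 2.73e-09 (edgeR). Plagl1 was at 519 to 666 CPM in female M+Z+ and 1122 to 1289 CPM in female M-Z- embryos, and for each of the 6 genes the groups did not overlap in either sex. In the domain of Airn, likewise a noncoding antisense RNA, Airn had a log2 change of 0.44 (interval 0.25 to 0.63, adjusted p = 0.00398) and its silenced target Igf2r of -0.48 (interval -0.62 to -0.34, adjusted p = 4.22e-05) in both sexes together, both below the size of a call. Igf2r was called in females (-0.61, adjusted p = 0.000198) and not in males (-0.31, interval -0.51 to -0.10, adjusted p = 0.157).

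**Figure D3:**
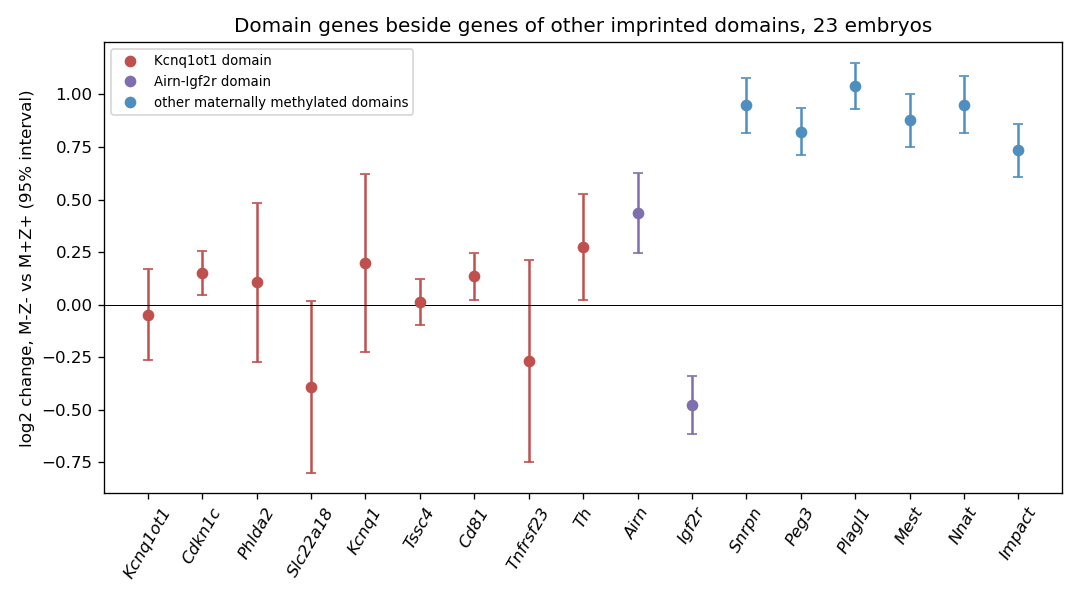
The log2 change between M-Z- and M+Z+ embryos of both sexes (y axis, points with 95% intervals from edgeR) for the 9 domain genes, Airn and Igf2r, and 6 genes of other maternally methylated domains (x axis). The interval of Kcnq1ot1 ends at 0.17, below those of Airn and of the 6 genes.

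For the size of that difference, the log2 ratio of Kcnq1ot1 to each of these genes was taken within every embryo. This leaves library size out. The mean of the M-Z- embryos was compared with that of the M+Z+ embryos by a two-sided exact permutation test within each sex. There were 7 mutants and 10 controls, and the smallest possible p of this permutation test was 0.000136. These ratios were chosen after the changes of the partner genes were seen, so the tests give the size of the difference and are not independent evidence of it. The ratio of Kcnq1ot1 to Plagl1 fell by 1.06 on the log2 scale, that to Nnat by 0.97 and that to Snrpn by 0.96, each with exact permutation p = 0.000136 and with no overlap of the groups in either sex. The ratios to Mest, Peg3 and Impact fell by 0.87, 0.82 and 0.72 (exact permutation p = 0.000272 for each). The ratio to Airn fell by 0.43 (exact permutation p = 0.00776). The ratio of Cdkn1c to Igf2r rose by 0.61 (exact permutation p = 0.000272) and that of Cdkn1c to Igf2 by 0.30 (exact permutation p = 0.000952). The ratio of Cdkn1c to H19 differed by 0.05 (exact permutation p = 0.642), and by 0.13 without the male M-Z- replicate 2, where it passed the exact test. After adjustment over the 10 ratios, 9 had a p below 0.05, the highest of them 0.00862 for Airn. Because of how the ratios were chosen, this count is a description and supports nothing else.

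The allelic tables ask from which copy the RNA came. Only Kcnq1ot1 of the 9 genes had any read assigned to an allele, and the other 8, Cdkn1c with 397470 reads among them, had 0 on either allele in all 23 embryos, so their imprinting was not measured here. Such a lack was common: of 14557 autosomal genes with at least 526 reads in all, 33.7% had none assigned. For Kcnq1ot1 310 of 30226 reads (1.03%) were assigned. The number of paternal reads per embryo was 7 at the lowest and 20 at the highest in female M+Z+ embryos, 16, 11 and 18 in female M-Z+ embryos, and 17, 17, 20 and 9 in female M-Z- embryos. Male embryos had 22, 10, 5 and 11 (M+Z+), 15, 14 and 15 (M-Z+), and 12, 4 and 14 (M-Z-). Maternal reads were 0 in 22 of the 23 embryos and 2 in the male M-Z- replicate 2, beside its 4 paternal reads.

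**Figure D4:**
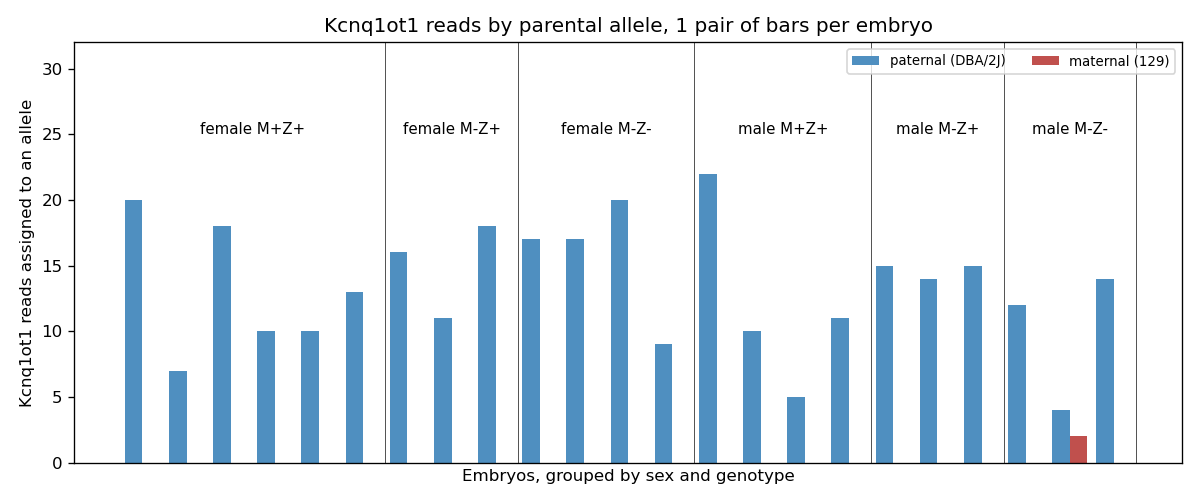
Number of Kcnq1ot1 reads assigned to the paternal (DBA/2J) and the maternal (129) allele (y axis, from 0) in each of the 23 embryos (pairs of bars, x axis), grouped by sex and genotype. Paternal reads number 4 to 22 per embryo, and the only maternal reads are 2 in 1 male M-Z- embryo.

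Pooled over embryos, Kcnq1ot1 had 126 paternal and 0 maternal reads in M+Z+ embryos, which allows a maternal share of up to 2.38% (3 reads of the total; exact Clopper-Pearson 95% upper limit 2.89%). In M-Z+ embryos it had 89 paternal and 0 maternal reads (up to 3.37%; exact upper limit 4.06%). In M-Z- embryos it had 93 paternal and 2 maternal reads, a maternal share of 2.11% with an exact Clopper-Pearson 95% interval from 0.256% to 7.40%, and 0% without the male M-Z- replicate 2. By sex, the 4 female M-Z- embryos had 63 paternal and 0 maternal reads (exact upper limit 5.69%) and the 3 male ones 30 and 2, a share of 6.25% with an interval from 0.766% to 20.8%. These limits cover counting error only, and without molecular identifiers PCR copies of a molecule are counted again. The P-score, the paternal share minus 0.5, was 0.5 in each of the 16 embryos with more than 10 assigned reads, so there was no difference between genotypes to test. In M+Z+ embryos 5 of 5 such embryos had a positive P-score (two-sided exact sign permutation p = 0.0625, the smallest possible with 5), and with any assigned read 10 of 10 did (exact p = 0.00195). The upper bounds of 7.40% in all M-Z- embryos and of 20.8% in the males alone lie below an equal share of the alleles, and a maternal share of a few percent was not detectable at this depth.

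A share of 1 allele needs its background, since strain and parent coincide in this cross. Of 7280 autosomal genes with at least 100 assigned reads in M+Z+ embryos, all reads were paternal for 1.11%, and at least 99% were for 2.25%. These included genes with no known imprint such as Tubb3, a tubulin of neurons, with 23081 paternal and 0 maternal reads. Among 1585 genes with 0.5 to 2 times the assigned reads of Kcnq1ot1, 1.96% had paternal reads only. The paternal reads of Kcnq1ot1 were also scaled to the assigned reads of the embryo (reads per 1000000 assigned). The 6 female M+Z+ embryos had a mean of 4.54 ± 1.80 (SD), the 3 female M-Z+ embryos 5.39 ± 1.28 and the 4 female M-Z- embryos 5.45 ± 2.0. The 4 male M+Z+ embryos had 3.74 ± 1.58, the 3 male M-Z+ embryos 5.74 ± 0.31 and the 3 male M-Z- embryos 3.97 ± 2.06. By two-sided exact permutation tests over the 6 pairs of genotypes within a sex, the lowest p was 0.0857 (male M-Z+ against M+Z+) and the lowest adjusted p was 0.30, and M-Z- differed from M+Z+ embryos with exact p = 0.457 in females and 0.943 in males.

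The other genes of the pathways that the domain feeds were looked at in M-Z- against M+Z+ embryos of both sexes together (edgeR, calls as above). Of 12 genes for chromatin factors of RNA-directed silencing and of methylation upkeep (Ezh2, Ehmt2, Dnmt1, Trim28 and others), 0 were called, with log2 changes from -0.06 to 0.17. The adjusted p was below 0.05 for 2 of them, Ehmt2, a histone H3 lysine methyltransferase (0.17, adjusted p = 0.00668), and Trim28, the corepressor that ZFP57 binds (0.13, adjusted p = 0.0341), both below the size of a call. Of 15 genes around Cdkn1c, the cyclins, their kinases and other inhibitors, 0 were called, with log2 changes from -0.32 to 0.12. An unadjusted p below 0.05 was found for 6 of them (25.4% over all genes). The adjusted p was below 0.05 for 4 of them, below the size of a call. These were Mki67, a marker of dividing cells (-0.32, interval -0.46 to -0.17, adjusted p = 0.00541), Rb1, the retinoblastoma protein that cyclin-dependent kinases inactivate (-0.30, interval -0.38 to -0.21, adjusted p = 2.02e-05), and the kinases Cdk6 (-0.25, interval -0.34 to -0.16, adjusted p = 0.000972) and Cdk4 (0.12, interval 0.05 to 0.19, adjusted p = 0.0298). Rb1 had a mean of 95.1 CPM in female M+Z+ and 78.1 CPM in female M-Z- embryos, and of 91.8 and 72.0 CPM in males, without overlap in either sex. Of 6 genes around the Kcnq1 channel, Kcne1 and Kcne3, which encode subunits that join the channel, rose by 0.87 ± 0.25 (SE, adjusted p = 0.0286) and 0.95 ± 0.20 (adjusted p = 0.00328), while Kcnh2 had an adjusted p of 0.0158 below the size of a call (0.27) and Kcne2, Kcne4 and Kcnj2 did not pass. Kcne1 was low, with a mean of 0.75 CPM and 4 to 27 reads per embryo. It was called in 19 of the 23 fits without 1 embryo. It lost its call without the female M-Z- replicate 3, the male M+Z+ replicate 1 or 3, or the male M-Z- replicate 2 (0.76, adjusted p = 0.0700 without the last). Kcne3 was called in all 23, and without the male M-Z- replicate 2 its log2 change was 0.68 (adjusted p = 0.00473). Of 14 genes of catecholamine synthesis and its neurons, 1 was called. This was Ddc, which acts in the step after Th and lies next to the imprinted gene Grb10, at 1.13 (interval 0.99 to 1.27, adjusted p = 2.34e-12). Hand2, a transcription factor of sympathetic neurons, had an adjusted p of 0.0103 below the size of a call (0.28). Over all genes 2.19% were called in this comparison, and 9.69% had an adjusted p below 0.05 at any size.

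How Kcnq1ot1 varied between embryos of the same sex and genotype was described last, on log2(CPM + 0.5) after the mean of each of the 6 groups was taken away. The coefficient of variation of its CPM was 16.5% over the 23 embryos, against 8.74% for Cdkn1c, and its highest embryo was 2.09 times its lowest. Embryos of a group with more Kcnq1ot1 had less Cdkn1c (r = -0.63, permutation p = 0.00101, rho = -0.70, permutation p = 7e-04, 23 embryos), and after adjustment over the 8 genes the p-values were 0.00808 and 0.0056. The relation held in each sex (r = -0.72 in females and -0.55 in males) and without the 2 embryos farthest from the median of Kcnq1ot1 (r = -0.67). Slc22a18 was also lower where Kcnq1ot1 was higher (r = -0.63, permutation p = 0.006, adjusted 0.024, rho = -0.58, permutation p = 0.00709, adjusted 0.0284), with r = -0.41 in females, -0.80 in males and -0.42 without the 2 farthest embryos. For the other 6 genes r lay between -0.36 (Cd81) and 0.36 (Th) with adjusted p of at least 0.112. Such correlations were common. Of the other 15502 genes whose average reached 1 CPM, 6.37% had an r with Kcnq1ot1 at least as far from 0 as that of Cdkn1c and 1.92% one at least as negative, down to -0.86 (Sec11a) and -0.85 (Kcne2). The values of Cdkn1c and Slc22a18 are therefore a description and nothing particular to the domain is read from them. All these values share each embryo's library and tissue make-up.

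**Figure D5:**
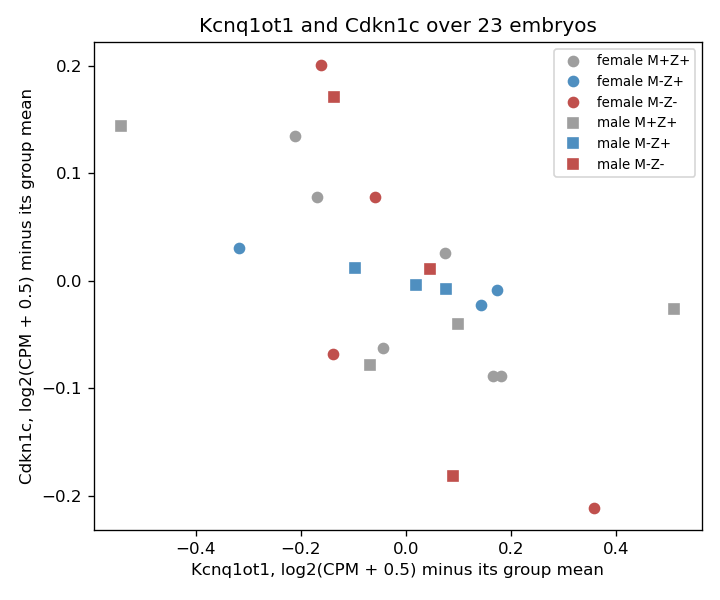
Level of Cdkn1c (y axis) against that of Kcnq1ot1 (x axis) in 23 embryos, each as log2(CPM + 0.5) minus the mean of its sex and genotype group. Symbols give sex and colours genotype, and embryos with more Kcnq1ot1 tend to have less Cdkn1c (r = -0.63).

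Genes outside the domain followed Kcnq1ot1 more closely. Of the 15503 genes whose mean reached 1 CPM, those most like Kcnq1ot1 over the 23 embryos by the same measure were Zzef1 (r = 0.89), Tmem245 (r = 0.89) and Hmcn1 (r = 0.88), and without centring their r was 0.86, 0.87 and 0.78. Those most like Cdkn1c were Mpo (r = 0.90), Sec14l2 (r = 0.88) and Manba (r = 0.88), and without centring 0.59, 0.33 and 0.74. None of these lies in the domain, and on the centred values each has a closer relation to its gene than Kcnq1ot1 and Cdkn1c have to each other.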

How the data were processed

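Total RNA of whole frozen embryos was extracted with Trizol, purified, treated with DNase and made into Illumina libraries. Per the labels, the authors aligned reads to mm9 with STAR (2.7.8a) and made gene counts with featureCounts of Subread (2.0.1). Their paper states unique alignments, strand-specific counting and counting of a read for each gene it overlaps. The deposited counts were raw whole numbers, 15.2 to 24.1 M (1000000) per embryo. The deposited allelic counts came from a second alignment to a masked genome and reads split by SNPs of the hybrid embryos, with 2.46 to 3.94 M assigned reads per embryo.

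Columns headed WT were read as M+Z+. Among the female allelic columns, 2 replicate labels occur in 2 pairs of columns each, so those columns were used by group only. The gene members and all gene lists were chosen with earlier results of these data known.

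Genes were tested with edgeR (4.0.16) quasi-likelihood fits, TMM scaling and filterByExpr, with the genotypes of a sex in 1 fit and with sex as a term over all 23 embryos. Adjustment was over all genes tested. A call needed an adjusted p below 0.05 and a log2 change of at least 0.5 in size (0.3 between sexes, none for sex interactions). CPM and TPM were computed from the raw totals. DESeq2 (1.42.0), scipy (1.17.1) and R (4.3.3) were also used, and the fits were tested on simulated data. The allele model over genes with a mean of at least 20 assigned reads per embryo was not run, since Kcnq1ot1 had means of 14.3 in females and 12.4 in males, so none of the 9 genes could enter it.

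Named genes were the 9 members, Zfp57, Xist and Tsix, list genes that were called or on which a result turned, and the 3 genes closest to Kcnq1ot1 and to Cdkn1c. Litters are not given, so p-values measure the spread between these embryos. The deviations of same-numbered embryos correlated at -0.29 to 0.25 (females) and -0.17 to 0.45 (males), so replicate numbers were not taken as pairs.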

Additional observations from a re-analysis of the deposited data

Results flagged for a closer look

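For each domain gene, the highest and the lowest embryo were compared with the rest of their group in the 27 combinations of gene and group with 4 to 6 embryos (Dixon's ratio at the 95% level). An embryo stood apart in 2 of them, and chance alone gives about 1 in 20. In female M-Z- embryos, 1 embryo (replicate 2) was at 84.0 CPM of Kcnq1ot1, above the other 3 at 58.4 to 62.7 CPM. In the same group, another embryo (replicate 4) was at 2.82 CPM of Phlda2, above the other 3 at 2.01 to 2.10 CPM.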

How the results depend on the processing

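Of the 9 domain genes 0 were called by edgeR or DESeq2 under each alternative run (other size factors, no filter on low counts, no minimum size, fits of only the compared groups, a replicate block, and leaving out each embryo in turn). The adjusted p nevertheless passed 0.05 for 2 of them below the size of a call: Cdkn1c in both sexes together by DESeq2 (0.15, adjusted p = 0.0357) and in 4 of 23 leave-outs (lowest 0.0274), and Cd81 in males without the M-Z- replicate 1 (0.38, adjusted p = 0.0396) and in both sexes without the female M-Z- replicate 2 (0.17, adjusted p = 0.0485). Of 817 values on the log2 scale under alternatives, 39 changed sign, none of them above 0.105 in size. The causes of these shifts were not tested.

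Replicate numbers did not pair the embryos (2 of 10 female and 2 of 9 male same-numbered pairs had r over 0.1). With the replicate block, the log2 change of M-Z- against M+Z+ in females was -0.085 for Phlda2, -0.014 for Kcnq1 and -0.0024 for Cd81, and in both sexes together (a fit added after the data were seen) 0.070 for Kcnq1ot1 and -0.0023 for Tssc4, each with the opposite sign to the fit without it. In males it moved Kcnq1ot1 from 0.12 to 0.32 ± 0.095 (SE, adjusted p = 0.128) in M-Z- and from 0.20 to 0.41 ± 0.095 (adjusted p = 0.123) in M-Z+ against M+Z+ embryos. The block left 52 genes called over all genes in females against 95, and 128 in males against 65.

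Leaving out 1 embryo at a time moved the following values through 0. For M-Z- against M+Z+ in females, Phlda2 ranged from -0.10 to 0.20, Kcnq1 from -0.063 to 0.23, Tssc4 from -0.039 to 0.038, Cd81 from -0.0022 to 0.084 and Th from -0.056 to 0.13. In males Kcnq1ot1 ranged from -0.030 to 0.30, Tssc4 from -0.027 to 0.14 and Tnfrsf23 from -0.79 to 0.063, and in both sexes together Kcnq1ot1 ranged from -0.11 to 0.0079 and Tssc4 from -0.015 to 0.049. For M-Z+ against M+Z+, Kcnq1ot1 ranged from -0.073 to 0.15 in females (0.049 to 0.39 in males, without a change of sign), and Cdkn1c from -0.022 to 0.028 in females and -0.049 to 0.028 in males. The ratio of Cdkn1c to H19 ranged from -0.017 to 0.13 and passed the exact test only without the male M-Z- replicate 2.

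The maternal share of Kcnq1ot1 reads ranged from 0% to 2.67% in M-Z- embryos and from 0% to 0.694% in all embryos when 1 embryo was left out, and it was 0% in both as a mean over embryos with more than 10 reads. The difference of the P-score between M-Z- and M+Z+ embryos, 0 in each sex, was 0.0020 in females and 0.0036 in males after centring on the autosomal median, and in males -0.0625 with reads pooled and -0.111 with every embryo that had an assigned read (added after the data were seen). The paternal reads per 1000000 assigned reads differed in males by -0.50 to 1.41.

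DESeq2 called 182 genes in males and 143 in females, the count without a filter was 99 in males, fits of only the compared groups called 40 in males and 3 (against 10) for M-Z+ females, and without a minimum size 212 genes were called in females and 1661 in both sexes together. A minimum of 50 assigned reads left 0 embryos, and the allele models could not be fitted for a domain gene. At 11 to 57 reads per embryo, the intervals of Phlda2, Slc22a18, Kcnq1 and Tnfrsf23 reach beyond 0.3 in size, and 4 to 22 assigned reads of Kcnq1ot1 do not resolve a maternal share of a few percent.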
